A study of Homo sapiens with 4 samples.

Results

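Glutamate and glutamine carriers of the SLC1 family (SLC1A1, SLC1A2, SLC1A3, SLC1A4 and SLC1A5) and the enzymes GLS2, GLUL, GLUD1 and OAT were followed in LNCaP cells with and without lentiviral ERG. These 9 genes were grouped by what they do, but they were picked with earlier results of these arrays known. Every probe set that the platform annotation assigns to 1 of them was taken. 8 of the 9 had a probe set, 21 probe sets in all among the 39464 with 1 gene name, and each of the 8 was represented by its brightest probe set in a table of 19583 genes. GLS2 was not analysed here, since none of the probe sets used here carries its name.

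LNCaP is an androgen-responsive human prostate cancer cell line. The arrays labelled LNCap ERG held RNA of LNCaP cells given a lentivirus for ERG, an ETS transcription factor, named ERG-RFP in the methods (RFP, red fluorescent protein), and those labelled LNCap Vector held RNA of cells given the lentivirus for the fluorescent protein alone. Both were grown in the same medium with no further treatment and seeded overnight before extraction, with 2 arrays in each group. The labels and the methods do not state if a group's arrays were separate cultures, and the p-values therefore cover no more than the array-to-array spread, which may be technical.

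Glutamate carries nitrogen between amino acids, feeds carbon into the citric acid cycle and, outside the cell, acts as an excitatory transmitter. The carriers SLC1A1, SLC1A2 and SLC1A3 pump glutamate and aspartate into cells with sodium, while SLC1A4 and SLC1A5 exchange small neutral amino acids, SLC1A5 being a main route of glutamine entry in many tumour cells. Inside the cell, GLS2 splits glutamine to glutamate, GLUL joins glutamate and ammonia back to glutamine, GLUD1 turns glutamate to 2-oxoglutarate in mitochondria, and OAT links ornithine to glutamate and proline. The study asked how ERG alters transmitter receptors and metabolites in these cells, and the comparison below asks whether transcripts for glutamate and glutamine handling differed.

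None of the 8 genes was called different between the groups, with adjusted p-values of 0.42 to 0.87 from limma's moderated test with Benjamini-Hochberg adjustment over all 19583 genes. The 2 lowest log2 fold changes were those of OAT (-0.38) and SLC1A5 (-0.34), each lower in both ERG arrays than in both vector arrays. So were 19.1% of all genes. SLC1A1 was the 1 gene above 0 (0.13). SLC1A2, with group means of 4.51 and 4.63, read below the 95th percentile (4.97) of genes that prostate cells are not expected to use. It read above their median of 3.36. At an unadjusted p under 0.05 limma gave 2 of the 8, both lower, where 4.11% of all genes were lower at that p, 5.61% were higher and 9.71% were at that p in either direction (10.4% of the genes above background in both groups). The methods' t-test gave 1, SLC1A1, and none after adjustment. Over all genes 0.0102% passed the adjusted threshold of 0.05.

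Probe set intensities are relative and were not compared between genes. Background was read from 30 measured genes of other organs, whose log2 intensities had their median at 3.36 and their 95th percentile at 4.97. ERG itself does not check the labels, since its 4 probe sets stayed between 2.65 and 3.58, under that percentile, with differences of -0.24 to 0.12 on the log2 scale. The sources do not say if their probes lie in the transduced sequence. Over all genes the SD of the log2 difference was 0.185 between the ERG arrays and 0.189 between the vector arrays. Across the groups it ran from 0.193 (ERG 2 and vector 1) to 0.238 (ERG 1 and vector 2), so the nearest arrays of the 2 groups were hardly further apart. Of 10 measured LNCaP and luminal prostate markers, 9 lay above the background percentile in both groups. The lowest log2 fold change was that of KLK2, a kallikrein (-0.29, adjusted p = 0.43 from limma). It ran from -0.31 to 0.21 over the settings with all 4 arrays, so that its sign turned. The highest was that of FOLH1, the prostate-specific membrane antigen that frees glutamate from folate and peptide substrates (0.08, adjusted p = 0.76 from limma, with -0.02 to 0.08). The name of this FOLH1 probe set marks it as able to pick up other transcripts, and the FOLH1 probe set without a mark had -0.02. The summed intensity of 11 basal and mesenchymal markers, in which bright genes count most, was 1026 to 1040 in the ERG arrays and 752 to 789 in the vector arrays. The list was split in direction, with 6 log2 fold changes above 0, 5 below and a median of 0.03, and 9 of the 11 lay below background. The 2 above background were VIM and COL1A1. VIM had a log2 fold change of 0.55 (adjusted p = 0.24 from limma), or 0.22 by the mean of its probe sets. COL1A1 had 0.38 (adjusted p = 0.35 from limma), or 0.09 by the mean of its probe sets. The part of these 2 genes in the results below was not tested. VIM passed under 2 alternatives, trended and robust moderation and without dim genes, with adjusted p-values of 0.014 to 0.74 over all settings. Of 11 astrocyte and neuron markers 10 lay below the percentile, and the summed intensity was 317 to 337 against 333 to 349.

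The starts of the carriers' and enzymes' genes are shown for the 2 with the lowest values, SLC1A5 and OAT, because ERG binds DNA at ETS sites with the core GGAA. The 250 bases before the start are from RefSeq (GRCh38.p14), 5′ to 3′ on the gene's strand, with GGAA on either strand (GGAA or TTCC) in capitals. The first of the 3 starts listed for SLC1A5 lies at chr19:46788595-46788844 (minus strand), and the start of OAT at chr10:124418924-124419173 (minus strand).
SLC1A5: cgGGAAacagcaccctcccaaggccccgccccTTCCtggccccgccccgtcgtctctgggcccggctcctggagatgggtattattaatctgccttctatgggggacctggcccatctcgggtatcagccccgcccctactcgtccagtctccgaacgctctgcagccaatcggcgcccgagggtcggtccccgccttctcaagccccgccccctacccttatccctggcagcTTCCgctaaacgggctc
OAT: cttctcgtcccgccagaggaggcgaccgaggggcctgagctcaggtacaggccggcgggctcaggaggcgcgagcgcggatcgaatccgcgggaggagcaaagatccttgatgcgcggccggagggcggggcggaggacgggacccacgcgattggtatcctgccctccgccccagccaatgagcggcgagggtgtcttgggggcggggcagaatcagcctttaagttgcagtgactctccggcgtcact

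The window of SLC1A5 held the core 3 times and that of OAT 0 times, where the median over 35116 RefSeq windows was 3. The longer ETS site CCGGAAGT, which contains the core, was found on either strand in none of the 14 windows of these genes (250 bases before to 50 after a start; SLC1A2 had none in the table) and in 4.14% of all windows. ATF4, the factor of the amino acid response, is known to act on several of these carriers, so its site TGATGNAAT was searched too and found in none of the 14, against 0.991% of all windows. The shorter TGATGNAA, searched after the longer one gave no match, was in 3 of the 14 and in 3.62% of all. The 3 matches are shown with their flanks, the match in capitals, because they fall in 3 SLC1 carriers: SLC1A3 at chr5:36596357-36596386 (plus strand), SLC1A4 at chr2:64989381-64989410 (plus strand, on the opposite strand of the gene) and the third start of SLC1A5 at chr19:46784893-46784922 (minus strand).
SLC1A3: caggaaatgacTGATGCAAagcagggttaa
SLC1A4: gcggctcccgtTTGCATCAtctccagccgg
SLC1A5: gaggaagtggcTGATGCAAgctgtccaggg
A match is a description of the letters and says nothing of binding in these cells.

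**Figure D1:**
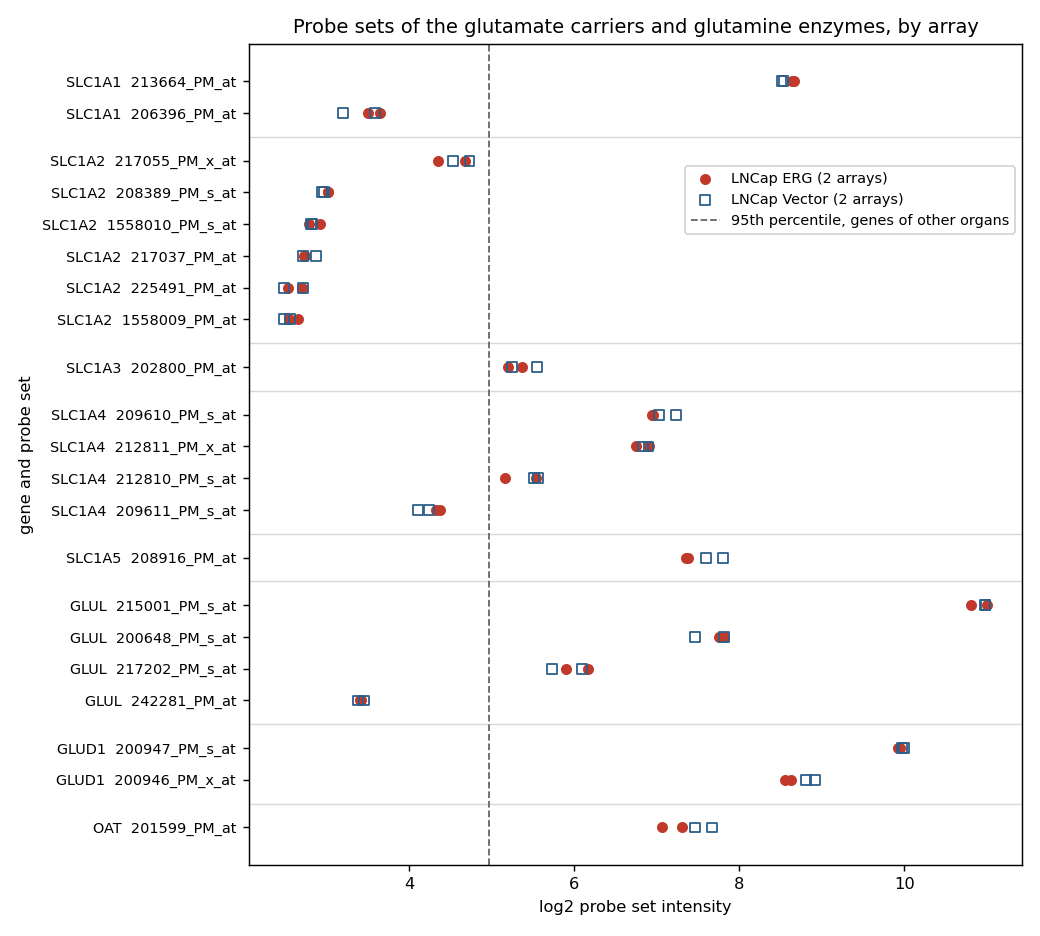
The x axis is log2 intensity and the y axis the 21 probe sets of the 8 genes, 1 point per array: circles are the 2 LNCap ERG arrays, open squares the 2 LNCap Vector arrays, and a broken line marks 4.97, the background percentile. The 6 SLC1A2 probe sets lie left of the line, and the groups do not overlap at 8 of the 21 probe sets, 5 lower in the ERG arrays (among them OAT, SLC1A5 and both of GLUD1) and 3 higher (among them the brighter of SLC1A1). Of all probe sets 20.1% were lower without overlap and 18.9% higher.

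Among the glutamate pumps, SLC1A1, the neuronal and epithelial form also known as EAAT3, read 8.64 and 8.67 on the log2 scale in the ERG arrays and 8.51 and 8.53 in the vector arrays. Both ERG arrays were above both vector arrays, by a small margin. The log2 fold change was 0.13 (standard error 0.08, 95% interval -0.06 to 0.32, adjusted p = 0.63), 1.09-fold. A second SLC1A1 probe set was dim, at 3.57 ± 0.10 (SD, n = 2) against 3.39 ± 0.27 (SD, n = 2), and its groups overlapped.

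SLC1A3, the glial glutamate pump EAAT1, read 5.20 and 5.37 in the ERG arrays and 5.24 and 5.55 in the vector arrays, close to the background percentile. The groups overlapped, with a log2 fold change of -0.11 (95% interval -0.44 to 0.22, adjusted p = 0.83). Without the second vector array the sign turned, to 0.043.

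SLC1A2, EAAT2, the main glutamate pump of astrocytes, had 6 probe sets, and all lay below the background percentile in every array. The brightest, whose name marks it as able to pick up other transcripts, read 4.67 and 4.35 in the ERG arrays and 4.53 and 4.73 in the vector arrays. Its log2 fold change of -0.12 (95% interval -0.47 to 0.23, adjusted p = 0.82) and those of the other 5 (-0.06 to 0.08) are readings near background and give no size for SLC1A2. The astrocyte markers GFAP and AQP4 were below the percentile as well.

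SLC1A5, the glutamine and neutral amino acid exchanger ASCT2, has 1 probe set and read 7.37 and 7.36 in the ERG arrays and 7.81 and 7.60 in the vector arrays. The ERG arrays lay close together and below both vector arrays, which stood further from each other than the ERG arrays did. The log2 fold change was -0.34 (standard error 0.10, 95% interval -0.59 to -0.09, unadjusted p = 0.018, adjusted p = 0.42 from limma), 1.26-fold lower. Leaving out single arrays gave -0.44 to -0.23, and the unadjusted p from 0.0095 to 0.090, under 0.05 only without the second vector array.

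SLC1A4, the related exchanger ASCT1 for alanine, serine, cysteine and threonine, had 4 probe sets that did not move together. The brightest read 6.96 and 6.94 in the ERG arrays and 7.23 and 7.03 in the vector arrays, without overlap, giving a log2 fold change of -0.18 (95% interval -0.43 to 0.06, adjusted p = 0.61). The others above background had -0.04 and -0.18 with overlapping groups, and the dimmest, below background, had 0.18. The mean over the 4 probe sets had a log2 fold change of -0.06 (adjusted p = 0.88, against 0.38 to 0.88 over the settings with all 4 arrays). Both exchangers therefore had a value below 0 at their brightest probe set, but the interval of SLC1A4 includes 0 and its size hung on the probe set.

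Among the enzymes, OAT, ornithine aminotransferase, has 1 probe set and read 7.07 and 7.31 in the ERG arrays and 7.46 and 7.67 in the vector arrays. Both ERG arrays were below both vector arrays, though the gap between the nearest arrays was smaller than the distance within either group. The log2 fold change was -0.38 (standard error 0.12, 95% interval -0.69 to -0.07, unadjusted p = 0.026, adjusted p = 0.45 from limma), 1.30-fold lower. Leaving out single arrays gave -0.50 to -0.26, with unadjusted p-values of 0.017 to 0.12, above 0.05 without the first ERG or the second vector array.

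GLUD1, glutamate dehydrogenase, had 2 probe sets that differed. The brighter read 9.92 and 9.94 in the ERG arrays and 10.00 and 9.97 in the vector arrays, giving a log2 fold change of -0.05 (95% interval -0.24 to 0.14, adjusted p = 0.87). The other read 8.55 and 8.62 against 8.81 and 8.92, giving a log2 fold change of -0.28 (standard error 0.09, 95% interval -0.51 to -0.05, unadjusted p = 0.027, and adjusted p = 0.54 over all 39464 probe sets by limma). Its name marks it as one that can pick up related transcripts, and GLUD2 is a near-identical copy of GLUD1, so what it reads is uncertain. The name of the brighter carries another mark (s), so its value is not taken as a clean reading of GLUD1 either. The dimmer minus the brighter was -1.37 and -1.32 in the ERG arrays and -1.19 and -1.05 in the vector arrays, a difference of -0.23 on the log2 scale without overlap. The exact two-sided permutation test over the 4 arrays gave p = 0.333, the smallest that 2 arrays against 2 allow. Groups without overlap always give that value, so the test decides nothing here. The mean of both had a log2 fold change of -0.16 (adjusted p = 0.57, against 0.57 to 0.91 over the settings with all 4 arrays).

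GLUL, glutamine synthetase, had 4 probe sets with overlapping groups at each. The brightest read 10.81 and 11.00 in the ERG arrays and 10.98 and 10.98 in the vector arrays, giving a log2 fold change of -0.07 (95% interval -0.32 to 0.17, adjusted p = 0.85). The next ones had 0.15 and 0.12, and the last, below background, had the same mean of 3.41 in both groups. The 95% interval of the brightest holds no difference of 2-fold in its reading in either direction, and the same is true of the other 6 genes above background. These intervals cover only the spread between the arrays, not that between cultures, and SLC1A3 read close to background.

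**Figure D2:**
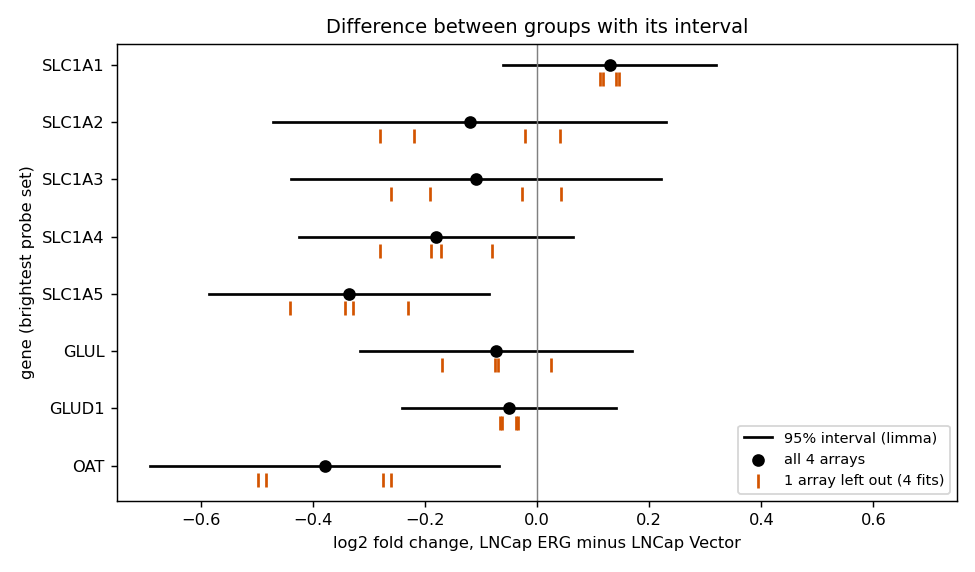
Log2 fold change of LNCap ERG minus LNCap Vector (x axis) for the brightest probe set of each of the 8 genes (y axis); points are the fit on all 4 arrays, lines limma's 95% interval and orange marks the 4 fits with 1 array left out. The intervals of SLC1A5 and OAT lie below 0 before adjustment over all genes, and 7 of 8 points are below 0.

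Over the 8 genes the median log2 fold change was -0.12, with 7 below 0, against 0.01 over all genes, of which 47.2% were below 0. The groups did not overlap at 5 of the 8, 4 lower and 1 higher, where 40.9% of all genes did not overlap, 19.1% lower and 21.7% higher. Leaving out single arrays gave medians of -0.17 to -0.07. Over the 21 probe sets the median was nearer 0, at -0.04, against -0.001 over all probe sets. Below 0 were 12 of the 21, against 19983 of all 39464. At an unadjusted p under 0.05 by limma 3 of the 21 were lower and 0 higher (SLC1A5, OAT and the dimmer GLUD1), against 4.41% and 4.3% of all probe sets, 8.7% together. Without overlap 5 were lower and 3 higher, against 20.1% and 18.9%. None passed over all probe sets, where 0% did in all. The genes had been picked with earlier results of these arrays known, so the counts are a description.

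The rest of the pathway was read from 7 lists with 88 measured genes, of which none passed over all genes. Those with an unadjusted p under 0.05 were 8 above and 9 below 0, beside 9.71% of all genes in either direction. The median log2 fold change over the 88 was 0.00, with 45 above 0 and 43 below. Single genes of the 88 stood further from 0 than the 8 above, in both directions, but a larger set can do so by number alone. Over all genes the log2 fold changes ran from -2.06 to 1.72. The outermost of the 88, GRIK2 (0.84) and GRIN3A (-0.58), had at least 1 group below background.

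Among 14 other plasma membrane carriers 1 was higher and 3 were lower at that unadjusted p. SLC7A11, the cystine carrier that exports glutamate in return, read 8.69 ± 0.22 in the ERG arrays and 9.22 ± 0.07 in the vector arrays (SD, n = 2 in either group), giving a log2 fold change of -0.53 (adjusted p = 0.37 from limma). SLC7A5, the leucine carrier that can export glutamine, read 6.14 and 5.99 against 6.43 and 6.40, giving a log2 fold change of -0.34 (adjusted p = 0.37). These work beside SLC1A5, which brings in the glutamine that SLC7A5 can trade. SLC1A7, a glutamate pump of the retina, had 0.31 (adjusted p = 0.47), with both groups below background, and 0.15 by the mean of its probe sets. The list's median was 0.00 over all 14 genes and -0.13 over the 7 above background, of which 6 were below 0. Of all 10146 genes above background in both groups 5016 were below 0. Of the lists with genes below background, such a median is given for this one alone, and it was not planned. All genes of the amidotransferase and glutathione lists lay above background, with medians of 0.01 and -0.002.

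Of 8 vesicular and mitochondrial carriers, 1 was lower at that p, SLC25A12, the mitochondrial aspartate-glutamate exchanger, which read 6.65 and 6.78 against 7.01 and 7.07, giving a log2 fold change of -0.32 (adjusted p = 0.39). Its paralog SLC25A13, citrin, had -0.25 (adjusted p = 0.53), with both ERG arrays below both vector arrays. The vesicular glutamate carrier SLC17A6 had -0.13 (adjusted p = 0.66), below background. In this list 7 of 8 genes were below 0, with a median of -0.11 (-0.17 to -0.04 over the settings with all 4 arrays), and 4 of the 8 lay below background in both groups.

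Of 12 other enzymes that make or split glutamate, 1 was lower at that p. PSAT1, the serine synthesis aminotransferase that turns glutamate to 2-oxoglutarate, read 11.68 and 11.72 against 11.85 and 12.04, giving a log2 fold change of -0.24 (adjusted p = 0.51 from limma). The other PSAT1 probe set, also above background, had -0.64, and the mean of both -0.44. NAALAD2, a peptidase related to FOLH1, had 0.21 (adjusted p = 0.54), or 0.04 by the mean of its probe sets. GAD1, which makes GABA from glutamate, had 0.19 (adjusted p = 0.54), or -0.01 by that mean. NAALAD2 and GAD1 were below background in both groups. The list's median was 0.09, with 7 genes above 0 and 5 of the 12 below background, and 0.01 without the first ERG array, 0.02 without the first vector array and 0.02 by the mean of probe sets.

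Of 10 glutamine-using amidotransferases and related enzymes, 2 were higher and 1 lower at that p. CPS1, carbamoyl phosphate synthetase of the urea cycle, read 7.97 ± 0.02 in the ERG arrays and 7.35 ± 0.23 in the vector arrays (SD, n = 2 in either group), giving a log2 fold change of 0.62 (adjusted p = 0.32 from limma), and 0.46 to 0.78 with single arrays left out. CPS1 takes its nitrogen from free ammonia rather than from glutamine. ASNS, asparagine synthetase, had -0.25 (adjusted p = 0.44) at its brighter probe set, 0.12 at a probe set below background and -0.06 by their mean, and NADSYN1, NAD synthetase, had 0.21 (adjusted p = 0.51). The remaining 7 genes of the list, which include CAD, PPAT, PFAS, GMPS and both CTP synthetases of nucleotide synthesis, had unadjusted p-values above 0.05.

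Of 12 proline, ornithine and urea cycle enzymes, which neighbour OAT, 2 were higher and 1 lower at that p. ARG2, the mitochondrial arginase that makes the ornithine on which OAT acts, read 10.16 and 10.25 in the ERG arrays and 9.76 and 9.77 in the vector arrays at its brighter probe set. It had a log2 fold change of 0.44 (adjusted p = 0.29), while the dimmer ARG2 probe set had -0.01. ASS1, argininosuccinate synthetase, read 10.29 and 10.18 against 9.86 and 9.74, which gave 0.44 on the log2 scale (SE 0.09, adjusted p = 0.32). Both stood apart from the vector arrays in the direction opposite to OAT, and both passed under 1 alternative, trended and robust moderation of the variance (ARG2 adjusted p = 0.018, in a range of 0.018 to 0.99 over all settings; ASS1 0.037, in a range of 0.037 to 0.76). ALDH4A1, which oxidises the product of OAT to glutamate, had -0.23 (adjusted p = 0.50), and -0.15 by the mean of its probe sets. The list's median was -0.02.

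Of 9 genes of glutathione synthesis and turnover, 1 was higher and 1 lower at that p. CHAC1, which breaks glutathione down inside the cell, read 6.84 and 6.60 in the ERG arrays and 7.22 and 7.36 in the vector arrays, or -0.57 on the log2 scale (SE 0.11, adjusted p = 0.32). GGT1, which splits the glutamyl group from extracellular glutathione, read 7.68 and 7.65 against 7.32 and 7.33, or 0.34 on the log2 scale (SE 0.07, adjusted p = 0.34). Its other 4 probe sets had values of 0.16 to 0.36, and the 4 above background carry the same mark for related transcripts as the dimmer GLUD1 probe set. GCLM, a subunit of the first enzyme of glutathione synthesis, had -0.15 (adjusted p = 0.61), and -0.25 by the mean of its 3 probe sets.

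Of 23 glutamate receptor genes, the proteins that sense the transmitter the SLC1 pumps remove, 2 were higher and 1 lower at that p, and 20 lay below background in both groups. GRIK2 had 0.84 (adjusted p = 0.12), GRIN2A 0.39 (adjusted p = 0.33) and GRIN3A -0.58 (adjusted p = 0.34), with at least 1 group of each below background, so their sizes are uncertain. By the mean of their probe sets they had 0.13, 0.12 and -0.24.

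**Figure D3:**
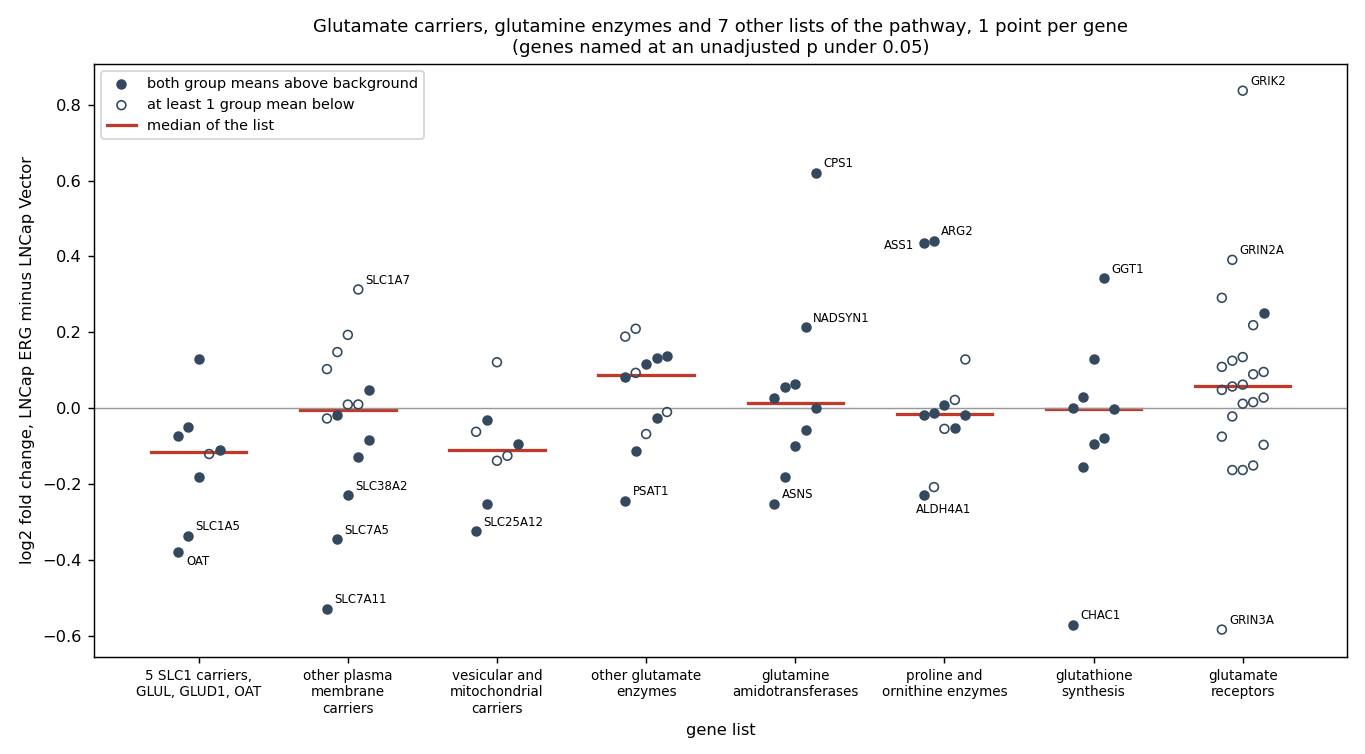
Log2 fold change of LNCap ERG minus LNCap Vector (y axis) for the 8 genes and for the 88 measured genes of 7 other glutamate and glutamine lists (x axis), 1 point per gene; filled points have both group means above the background percentile, red lines are list medians, and names mark genes at an unadjusted p under 0.05, none of which passed after adjustment. The 8 genes lie between -0.38 and 0.13. Among the 88, a larger set that can reach further by number alone, CPS1 reaches 0.62 and CHAC1 lies at -0.57.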

How the data were processed

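RNA of LNCaP cells was measured on 4 arrays. The authors scanned Affymetrix GeneChip Human Genome U133 arrays, analysed the images with dChip and normalized with RMAexpress. Their tool versions are not stated in the sources used here, and the probe set names carry a PM mark. What they deposited are intensities per probe set on a linear scale, as the array medians (14.0 to 14.4) and maxima (14962 to 15344) show. These were turned to log2, and 51965 probe sets less 2 that lack a value were kept. The platform annotation gave the names: 39466 probe sets name 1 gene, 838 several and 11661 none. The last 2 kinds were not used. Promoter sequences are from RefSeq.

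Each gene was read at its probe set with the highest mean. The comparison used limma 3.58.1 (lmFit, eBayes) under R 4.3.3 (2 residual and 3.23 prior degrees of freedom) with Benjamini-Hochberg adjustment over all genes, or over all probe sets. The fit was tested on simulated data. The members, the gene lists and the named genes were chosen with earlier results of these data known. The genes named are the 8, up to 3 of each list with the smallest p, ERG, the extremes of the LNCaP markers, and for SLC1A5 the 3 nearest genes. VIM, COL1A1, GFAP and AQP4, and other genes given without a value, were chosen after their values were seen. As alternatives the fit was run with trended and robust variance moderation, with dim genes left out, the mean of probe sets, plain probe sets, quantile normalization again, centring on 19 housekeeping genes, log2 of intensity plus 16, replicate number blocked, the t-test of the methods, all probe sets together, and each array left out. Arrays have no read depth, and their number limits the precision. Protein sequences were not used here.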

Additional observations from a re-analysis of the deposited data

How the results depend on the processing

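None of the 8 genes passed an adjusted p of 0.05 under any of the alternatives, and none of the 21 probe sets, while the count over all genes was 2 as reported, 89 with trended and robust moderation, 54 without dim genes, 27 with log2 of intensity plus 16, 14 with the mean of probe sets, 6 with housekeeping centring, 3 with quantile normalization again or plain probe sets, and 0 with replicate block, with the methods' t-test, all probe sets together or an array left out. SLC1A5, SLC1A4, OAT and GLUD1 stayed below 0 and SLC1A1 above 0 in all of these. By the mean of probe sets SLC1A2 was at 0.0020 and GLUL at 0.048. With single arrays left out SLC1A2 ran from -0.28 to 0.040, SLC1A3 from -0.26 to 0.043 and GLUL from -0.17 to 0.025. The number of the 8 at an unadjusted p under 0.05 was 2 as reported, 3 with log2 of intensity plus 16 (SLC1A1 added), 1 with the methods' t-test and 0 to 1 with single arrays left out (0 without the first ERG array). For the probe sets it was 3, 2 to 4 over the settings with all 4 arrays, and 1 to 3 with single arrays left out (1 without either ERG array). The median log2 fold change of the 8 genes, -0.12 as reported, was -0.076 with log2 of intensity plus 16. With single arrays left out it was -0.17 (without the second ERG array) to -0.068 (without the second vector array). Such fits keep 1 residual degree of freedom and take a single array to vary like the other group; the cause of the other shifts was not tested. The replicate numbers are shared by the groups, but the deviations of same-numbered arrays correlated at only 0.077 and the labels give no pairing; with the replicate block 2 of the 8 were at an unadjusted p under 0.05 and 0 passed. Without dim genes SLC1A2 was left out, and plain probe sets gave no value for SLC1A4 and GLUD1.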

Other observations

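Of the 9987 other genes that read above the background percentile in every array, the 3 whose centred log2 values over the 4 arrays lay nearest to those of SLC1A5 were AASDH, DOCK5 and IFIT3, at root mean square distances of 0.020, 0.030 and 0.031. Their log2 fold changes were -0.32, -0.36 and -0.31. With 4 arrays and so many genes, close neighbours of any gene can be found, and nothing is read from the match.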
